A study of Homo sapiens with 22 samples.

Results

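Splicing regulators are RNA-binding proteins that decide which exons of a pre-mRNA are kept. RNA-seq of hTERT-immortalized renal proximal tubule epithelial cells (RPTEC), a nontumorigenic human kidney line, was read here for 43 of them out of 36859 genes in the table. The 43 were chosen by name as SR proteins (12), hnRNPs (14), the PTB family (3), cell-type regulators with both ESRPs (8), splice site recognition factors (3) and U-rich or KH-type RNA binders (3), and all 43 have a value in every library. The values are gene totals, so they give how much mRNA of each regulator was present and not how any transcript was spliced.

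The 22 libraries form 11 groups of 2 replicates. Grown in 2% serum were untreated WT cells, WT cells kept with TGF-β (10 ng per ml) over 72 h, KO1 and KO2, which are clones with CRISPR frameshifts in SETD2, and a line labelled KO2 rescue. Grown in 10% serum were the clones Rescue1 and Rescue2, made from KO cells with a lentiviral SETD2, and WT cells carrying lentiviral eGFP, SOX2, OCT2 or PRRX1, which were bulk selected. Each KO and rescue line is a single clone, and rescue differs from KO in serum and vector as well as in SETD2, so that these cannot be told apart there. Nothing in the labels says that replicates are separate cultures, and p-values then measure only the spread between these libraries.

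SR proteins bind exonic enhancers and mostly favour exon inclusion, while hnRNPs coat nascent transcripts and often favour skipping. ESRP1 and ESRP2 are epithelial splicing regulators that set the epithelial isoforms of FGFR2, CD44, CTNND1 and ENAH, and they are known to be lost in epithelial-to-mesenchymal transition (EMT). SETD2 writes H3K36me3 on gene bodies, a mark that is read by adaptor proteins such as MORF4L1 (MRG15) and PSIP1, which are known to bring splicing factors such as PTBP1 to the transcript. PTBP1 represses exons with pyrimidine-rich flanks, and its paralogs PTBP2 and PTBP3 bind alike.

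The libraries were first compared with their labels. SETD2 was 1852 and 2061 normalized counts in WT, 1046 and 1130 in KO1, 1050 and 1052 in KO2, and 9764 to 10445 in Rescue1 and Rescue2. The libraries labelled KO2 rescue had 834 and 820, under KO2, so that their label is not matched by SETD2 mRNA. Some other values in them differed from KO2 toward WT, such as CD44 at 11591 and 10677. The epithelial list below, at 39722 to 40992, went past that of WT. Others stayed near KO2, such as FGFR2 at 32.2 and 39.5 against 29.1 and 38.9 in KO2. MAP2 was 857 and 671, against 64.3 and 80.0 in KO2 and 202 and 128 in WT. These libraries are called the labelled KO2 rescue here. Both WT libraries differed more from each other than other duplicates, with a median absolute log2 difference of 0.181 over 2347 well-read genes against 0.0644 in the SOX2 line, which was the lowest. Of the 9 proximal tubule markers, LRP2 was at or under 3 normalized counts in every library, and the list summed to 4103 to 5861 in WT, 9093 to 9620 in KO1 and 7556 to 7843 in KO2. Most of that sum was PAX8, at 2322 and 3743 in WT, 6382 and 6561 in KO1 and 5056 and 5096 in KO2. PAX2 was 834 and 937 in WT, 692 and 796 in KO1 and 744 and 779 in KO2, so that the tubule markers did not all rise. The epithelial marker list (6 genes) summed to 36242 to 37843 in WT, 10106 to 12057 in KO1 and 19626 to 20603 in KO2, mostly KRT8 and KRT19. Its member KRT18 was 290 and 259 in WT, 388 and 198 in KO1 and 199 and 130 in KO2. The fibroblast list (6 genes) summed to 829 to 12429 in WT, 223370 to 236450 in KO1 and 98936 to 102550 in KO2. Most of the fibroblast sum in the KO clones was DCN (decorin), at 234810 and 221610 in KO1, 98373 and 94978 in KO2 and 477 and 289 in WT. COL1A1 was 11919 and 532 in WT, 1042 and 815 in KO1 and 3751 and 3520 in KO2, so that the members of this list did not move together. The 3 sums differed between WT and the KO clones beside every KO change described here, and their part in these changes was not tested. In such bulk RNA, fewer cells of a kind and less RNA per cell cannot be told apart.

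The reference promoters of 4 members are shown because they stand for the changes that follow: HNRNPA3 and HNRNPD fell over 2-fold in KO1 and by less in KO2, HNRNPF fell in both clones and has a ZEB-type E-box, and PTBP3 rose in both. Each is the 250 bases before a RefSeq start site (GRCh38.p14), written 5′ to 3′ on the strand of the gene. HNRNPA3 is chr2:177212544-177212793 on the plus strand, HNRNPD chr4:82373992-82374241, HNRNPF chr10:43397278-43397527 at its inner start site, and PTBP3 chr9:112333027-112333276, all 3 on the minus strand. Capitals mark CACCTG, which reads as CAGGTG on the other strand and is the E-box that ZEB and SNAI factors are known to bind, or else CACGTG, the same on both strands, which was searched only after the stretches had been seen.
HNRNPA3: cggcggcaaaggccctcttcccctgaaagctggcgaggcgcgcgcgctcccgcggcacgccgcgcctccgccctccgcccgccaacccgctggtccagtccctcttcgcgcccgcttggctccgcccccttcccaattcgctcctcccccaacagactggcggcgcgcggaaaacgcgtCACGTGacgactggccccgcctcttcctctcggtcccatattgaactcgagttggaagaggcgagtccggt
HNRNPD: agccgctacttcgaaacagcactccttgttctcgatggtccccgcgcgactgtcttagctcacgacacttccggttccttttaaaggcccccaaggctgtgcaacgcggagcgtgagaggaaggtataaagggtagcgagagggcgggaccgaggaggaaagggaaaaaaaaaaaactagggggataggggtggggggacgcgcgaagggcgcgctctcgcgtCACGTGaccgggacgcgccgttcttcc
HNRNPF: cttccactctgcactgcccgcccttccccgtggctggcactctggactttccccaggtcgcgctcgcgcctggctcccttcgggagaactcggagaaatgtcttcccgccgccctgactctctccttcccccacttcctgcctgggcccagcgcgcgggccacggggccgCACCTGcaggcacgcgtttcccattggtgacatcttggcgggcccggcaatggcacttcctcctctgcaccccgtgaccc
PTBP3: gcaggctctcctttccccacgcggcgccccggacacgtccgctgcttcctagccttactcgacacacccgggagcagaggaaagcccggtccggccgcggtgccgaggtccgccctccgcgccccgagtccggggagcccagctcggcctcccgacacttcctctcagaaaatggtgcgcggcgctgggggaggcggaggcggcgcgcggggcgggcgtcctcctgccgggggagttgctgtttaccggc
The share of G and C was 60% in the stretch of HNRNPD, 70.4% in the stretch of HNRNPA3, 68.4% in that of HNRNPF and 73.6% in that of PTBP3, which held neither motif. The E-box of HNRNPF ended 74 bases before the start site, and CACGTG ended 65 bases before it in HNRNPA3 and 21 in HNRNPD. Of the 43 members, 36 had a window of 300 bases in the table, and the E-box was in those of 3 (SRSF11, HNRNPF and HNRNPM), that is in 4.92% of 61 windows against 20.6% of all 35116. CACGTG was in windows of 7 members and in 13.1% of their 61 windows against 7.26% of all. The missing members were ESRP1, ESRP2, HNRNPA1, QKI, RBFOX2, SRSF2 and TRA2A.

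The epithelial regulator ESRP2 had the largest change of any member. The gene spans chr16:68229033-68238102 on the minus strand (GRCh38). In WT it was read at 511 and 753 normalized counts, and TGF-β treatment gave 457 and 517. In KO1 it was 16.8 and 40.6, and in KO2 55.2 and 58.7. All 4 KO libraries therefore lay under every WT and TGF-β library, while the TGF-β libraries overlapped those of WT.

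Against WT, ESRP2 fell 22.8-fold in KO1 (log2 change −4.51 ± 0.33 SE, adjusted p = 4.6e-08, limma, as for every adjusted p below) and 10.7-fold in KO2 (−3.42 ± 0.33, adjusted p = 1.6e-06). With TGF-β the log2 change was −0.35, and its 95% interval ran from −1.06 to 0.36 (adjusted p = 0.565). Tested directly, the mean of both KO clones lay 12.3-fold under the TGF-β-treated cells (adjusted p = 1.2e-07). KO1 was also lower than KO2 (−1.09, adjusted p = 0.0371), but without the KO1 library at 16.8 the difference was −0.48 (adjusted p = 0.273), and it did not pass either without KO2 replicate 1 (adjusted p = 0.107) or KO2 replicate 2 (adjusted p = 0.156).

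In the rescue clones ESRP2 was 124 and 123 (Rescue1) and 177 and 155 (Rescue2), above all 4 KO libraries and under those of WT. It was 3.63-fold higher than the mean of both KO clones (adjusted p = 1.2e-05), and 2.48-fold higher than KO2 alone (adjusted p = 0.00238). WT eGFP cells in the same 10% serum had 252 and 389, and against them the rescue clones were 2.18-fold lower (−1.13, adjusted p = 0.00793). Without the eGFP library at 389 that difference was −0.81 and did not pass (adjusted p = 0.129).

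ESRP2 in the labelled KO2 rescue was near KO2, at 43.6 and 56.9 (−0.19, adjusted p = 0.834). WT eGFP cells were lower than WT cells in 2% serum (−0.98, adjusted p = 0.04), a difference in which vector and serum cannot be told apart and which did not pass without WT replicate 2 (−0.71, adjusted p = 0.26) or without eGFP replicate 1 (−0.67, adjusted p = 0.296). Among the lines with an ectopic factor ESRP2 was 244 and 305 with SOX2, 301 and 256 with OCT2, and 282 and 280 with PRRX1. The log2 differences from eGFP were −0.20, −0.17 and −0.15, none past the test (adjusted p = 0.997 to 1), with 95% intervals from −0.91 at the lowest to 0.55 at the highest.

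**Figure D1:**
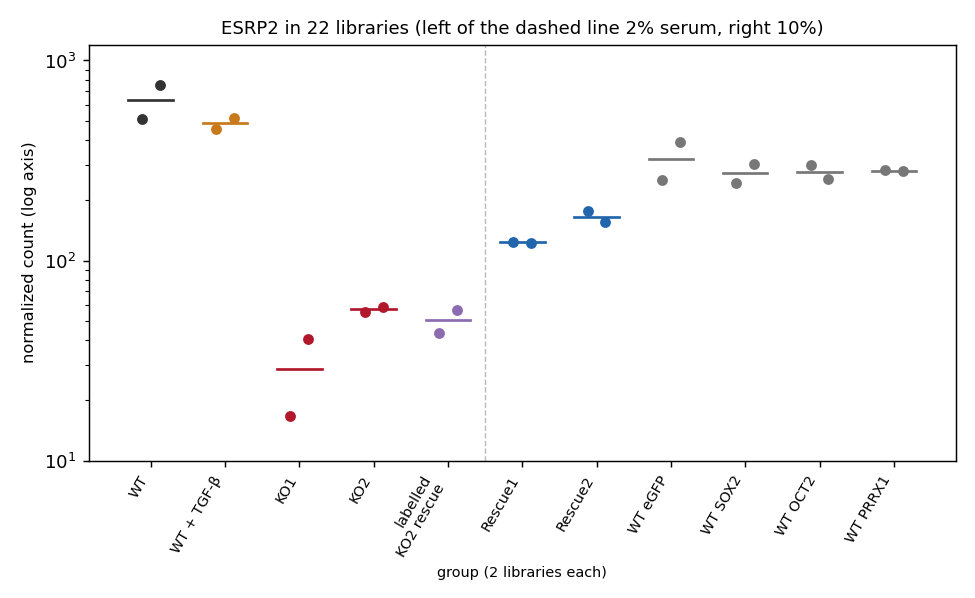
ESRP2 in normalized counts (log axis) in each library of the 11 groups, with points for libraries and short bars for group means. The 4 KO libraries and the labelled KO2 rescue lie at or under 58.7 normalized counts, the rescue clones between 123 and 177, and WT with or without TGF-β at 457 or above.

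ESRP1, its paralog on chromosome 8, was hardly read in any library. It was at 0 in 19 of the 22, and reached at most 2.85 normalized counts, in the labelled KO2 rescue. It did not reach the minimum of 10 normalized counts in at least 2 libraries and was not tested, which leaves 42 members among the 14585 genes that did. A total of 0 says only that the gene was under what about 3 normalized counts would show, so that ESRP2 was the ESRP that these cells could be read for.

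The genes known to act on ESRP expression moved unequally. ZEB2, a repressor of epithelial genes, was 317 and 330 in WT, 2029 and 2045 in KO1 and 2236 and 2280 in KO2, a rise of 6.27-fold and 6.95-fold (adjusted p = 2.4e-10 and 2.5e-10). ZEB1, its paralog, was 575 to 607 in WT and 633 to 728 in the KO clones, and rose in KO2 (0.29, adjusted p = 0.0214, against 0.20, adjusted p = 0.0947 in KO1), with a difference between the clones that did not pass (−0.10, adjusted p = 0.518). With TGF-β the order was the other way round, with ZEB1 at 988 and 1072 (0.80, adjusted p = 1.8e-05) and ZEB2 at 365 and 483 (0.37, adjusted p = 0.0473).

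ZEB2 was also high where ESRP2 was not at its lowest. In WT eGFP cells it was 1886 and 1593, in the 3 lines with an ectopic factor 1562 to 1863, and in the rescue clones 740 to 1090. SNAI2 was at most 43 in all libraries with 2% serum, 107 to 175 in the rescue clones and 337 to 496 in the other lines with 10% serum. TWIST1 and the epithelial factors GRHL2 and OVOL1 stayed under the count minimum. OVOL2, a repressor of ZEB genes, was 14.6 and 15.5 in WT, 4.04 and 0 under TGF-β treatment, and 0 in all 4 KO libraries. It was also 0 in the rescue clones and WT eGFP cells, and at most 1.02 in the remaining libraries.

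Genes that mark the epithelial state fell beside ESRP2, in part also with TGF-β. EPCAM was 3050 and 2764 in WT, 1605 and 1722 under TGF-β treatment, 296 and 218 in KO1 and 901 and 838 in KO2 (−0.80, −3.51 and −1.74, adjusted p at most 1.8e-04). It was under WT as well in the rescue clones (438 to 691) and in WT eGFP cells (1032 and 1031). RBM47, an RNA-binding protein of epithelia, was 1081 and 1643 in WT, 206 and 182 under TGF-β treatment, 306 and 61.4 in KO1 and 752 and 475 in KO2. It fell with TGF-β (−2.77, adjusted p = 0.00116) and in KO1 (−3.27, adjusted p = 9.1e-05), and in KO2 the change was −1.16 (adjusted p = 0.102). CDH1 (E-cadherin), little read in this line, was 25.5 and 47.5 in WT, 0 to 0.776 in the KO clones, 0 to 0.778 in the rescue clones and at most 58.0 in any library.

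The genes whose isoforms ESRPs are known to set were read here only as totals. FGFR2 was 401 and 532 in WT, 7.92 and 3.92 under TGF-β treatment, 11.7 and 9.30 in KO1 and 29.1 and 38.9 in KO2, so that it fell in all 3 comparisons (−6.13, −5.34 and −3.74, adjusted p = 2.1e-06, 1.5e-06 and 7.8e-05). It stayed low in the rescue clones, at 2.92 to 5.71, and was 21.6 and 34.1 in WT eGFP cells. The hyaluronan receptor CD44 went the other way, from 11504 and 12409 in WT to 66862 and 71305 in KO1 and 38565 and 32523 in KO2, with 12484 to 12623 in the rescue clones. Of the 8 such genes, 3 rose and 2 fell in KO1 (19% and 20.8% of all genes did), 2 rose and 2 fell in KO2 (15.3% and 13.7%), and 4 rose and 1 fell with TGF-β (8.5% and 9.22%). CTNND1 (p120-catenin) fell in both clones (−1.02 and −0.70) and rose with TGF-β (0.48), and ENAH rose with TGF-β (1.43, adjusted p = 4.5e-05), without a change that passed in either clone.

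**Figure D2:**
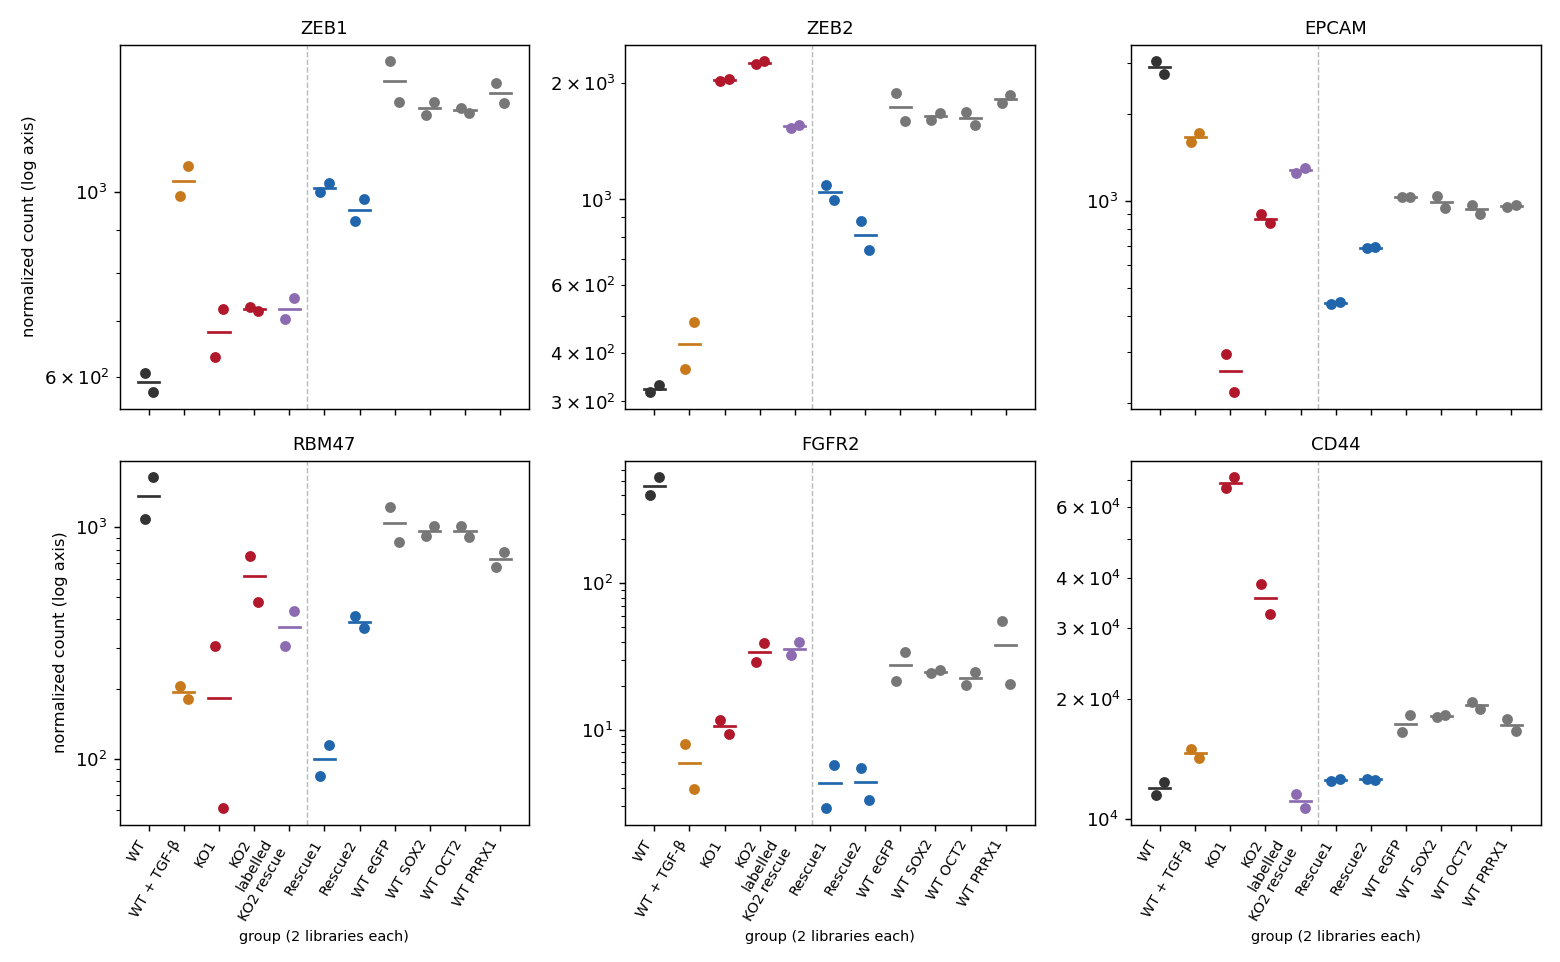
Normalized counts (log axes) of ZEB1, ZEB2, EPCAM, RBM47, FGFR2 and CD44 in each library of the 11 groups, with points for libraries, bars for group means, and 2% serum to the left of the dashed line. ZEB2 is 2029 or above in all 4 KO libraries and at most 483 in WT with or without TGF-β, while FGFR2 is 401 and 532 in WT and at most 55.0 in every other library.

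Most hnRNPs fell in the KO clones. Of the 42 members tested, 24 were lower and 4 higher in KO1 than in WT, where 20.8% of all genes were lower and 19% higher, and 18 were lower and 4 higher in KO2, where the shares were 13.7% and 15.3%. Of the 14 hnRNPs, 13 were lower in KO1 (median log2 change −0.73) and 10 in KO2 (median −0.44), and none was higher in either. Of the members, 6 fell over 2-fold in KO1 (ESRP2, MBNL3, HNRNPA3, HNRNPA1, TIA1 and HNRNPD), and in KO2 ESRP2 fell and PTBP3 rose over 2-fold, where 25% and 16.3% of all genes passed that mark in either direction. The median over all 14585 genes was 0 in KO1 and 0.003 in KO2. Scaling every library to the same total instead moved that all-gene median to −0.392 in KO1 and −0.204 in KO2, and the members split into 37 lower and 1 higher in KO1 and 27 and 2 in KO2.

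HNRNPA1, the most abundant member per length in WT (3753 normalized counts per kilobase of exon), shuttles between nucleus and cytoplasm and represses exons. It was 25275 and 24993 in WT, 11175 and 9909 in KO1, 18042 and 19384 in KO2, and 15032 and 16760 with TGF-β. It was thus lowest in KO1 with no overlap between these groups, and fell 2.39-fold there (−1.26 ± 0.07 SE, adjusted p = 1.1e-09) and 1.34-fold in KO2 (−0.43, adjusted p = 1.5e-04).

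HNRNPA3, a close relative, was 11891 and 10800 in WT, 4104 and 4713 in KO1 and 6138 and 5894 in KO2. It fell 2.58-fold (−1.37 ± 0.07 SE, adjusted p = 1.1e-09) and 1.88-fold (−0.91, adjusted p = 1.6e-07). HNRNPD (AUF1), which also binds AU-rich elements that govern mRNA decay, was 4964 and 4938 in WT, 2332 and 2367 in KO1 and 3077 and 3228 in KO2 (−1.07 and −0.65, adjusted p = 2.5e-08 and 9.3e-06). HNRNPA2B1 was 19938 and 18252 in WT, and 10534 to 11783 in the 4 KO libraries (−0.85 and −0.71, adjusted p = 3.1e-07 and 3.5e-06).

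The pattern was not the same for each hnRNP. HNRNPC, which binds uridine tracts, was 16898 and 17103 in WT, 10816 and 9489 in KO1, 9578 and 9941 with TGF-β, but 16476 and 16475 in KO2. It fell in KO1 (−0.75, adjusted p = 1.5e-07) and with TGF-β (−0.80, adjusted p = 5.5e-07), while the change in KO2 was −0.05, with a 95% interval from −0.18 to 0.09. HNRNPK fell in KO1 alone of the clones (−0.45 against −0.04), and this difference between clones passed as well (−0.41, adjusted p = 2.3e-04). HNRNPM fell in KO1 just past the threshold (adjusted p = 0.0459), and HNRNPH1, at −0.15 and 0.02, was the hnRNP that passed in neither clone.

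The SR proteins split. SRSF1, SRSF2, SRSF3, SRSF7, SRSF10 and TRA2B fell in both clones, SRSF5 rose in both, SRSF9 rose in KO1, and SRSF4, SRSF6, SRSF11 and TRA2A passed in neither. SRSF2, which also acts in transcription elongation, was 5200 and 5175 in WT, 3040 and 2657 in KO1 and 2880 and 2894 in KO2 (−0.87 and −0.85, adjusted p = 3.9e-08 and 9.7e-08). SRSF3, the smallest SR protein, was 5171 and 5445 in WT and 2501 to 3392 in the KO libraries (−0.90 and −0.69, adjusted p = 1.3e-06 and 3.0e-05). Neither gene overlapped between WT and KO.

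The rise of SRSF5 was smaller and hung on single libraries. It was 4453 and 3474 in WT, 5523 and 4826 in KO1 and 5267 and 5277 in KO2 (0.39 and 0.42, adjusted p = 0.00633 and 0.0052). Without WT replicate 2 neither passed (adjusted p = 0.0986 and 0.0784), without KO1 replicate 1 that in KO1 did not (adjusted p = 0.0638), and with every library at the same total the change was −0.02 in KO1 and 0.20 in KO2 (adjusted p = 0.127). SRSF9 rose in KO1 from 224 and 244 to 351 and 369 (0.62, adjusted p = 0.0235), and did not pass when any 1 of these 4 libraries was left out (adjusted p = 0.0524 to 0.108) or with the same total (0.21).

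**Figure D3:**
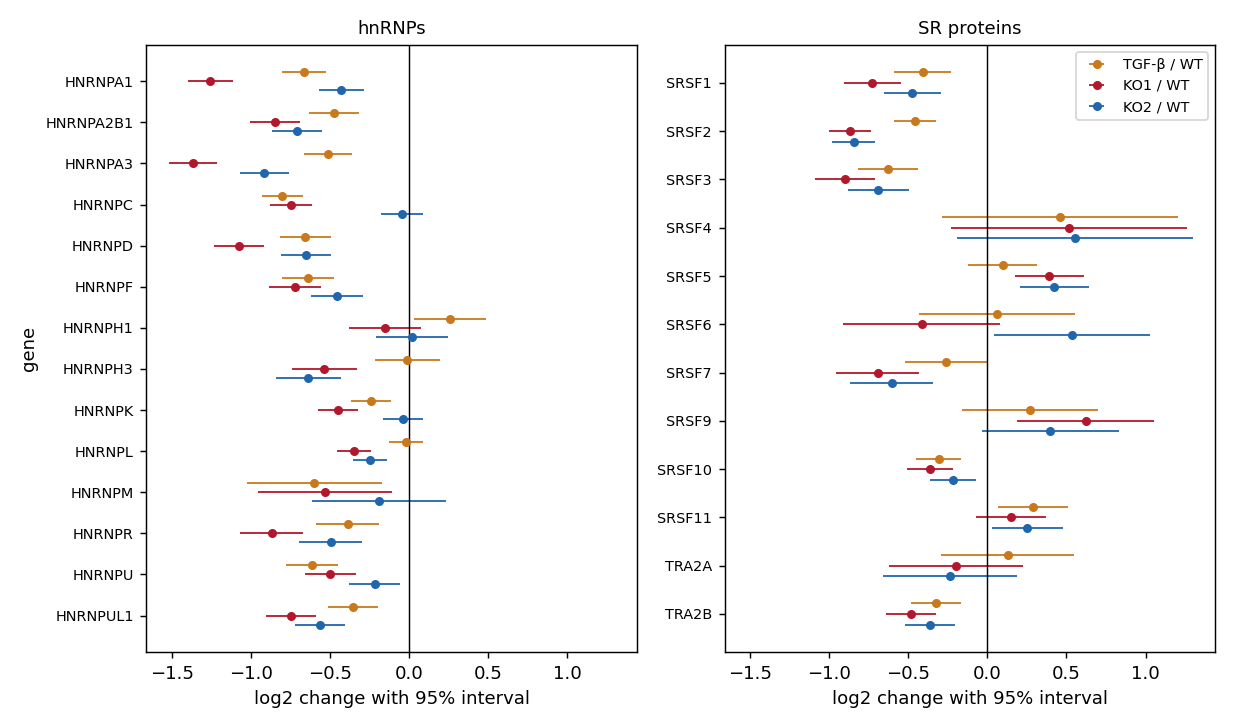
Log2 change against WT (points) with 95% intervals (bars) for the 14 hnRNPs and 12 SR proteins, for TGF-β treatment, KO1 and KO2. The intervals of 13 hnRNPs in KO1 and 10 in KO2 lie wholly under 0, while SRSF5 lies above 0 in both clones.

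The table also held 129 pseudogenes named after 19 of the members, which could share reads with them, and their summed counts were at most 0.208% of those of the parent gene. Both clones together gave 18 members that fell in both (11.2% of all genes did) and 3 that rose in both, SRSF5, PTBP3 and MBNL1 (12.1% of all genes). A further 8 passed in 1 clone and 13 in neither. Since both clones share the same WT libraries, these counts are not independent of each other.

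Of the cell-type regulators other than ESRP2, MBNL1, a muscleblind protein that favours adult isoforms, was 1828 and 1816 in WT, 2435 and 2687 in KO1 and 2756 and 2873 in KO2 (0.49 and 0.63, adjusted p = 3.9e-05 and 5.5e-06). With the same total the rise in KO1 was 0.08 and did not pass. Its paralog MBNL2 was 1356 and 1397 in WT and rose in KO2 (1823 and 1891, adjusted p = 0.00263, but 0.131 with the same total), while the log2 change in KO1 was −0.03. MBNL3, the least abundant of the 3 at 19.2 normalized counts per kilobase in WT, fell in KO1 from 241 and 258 to 61.2 and 100.4 (−1.66, adjusted p = 0.00255), and the change in KO2 was −0.87 (adjusted p = 0.102). The 3 muscleblind genes therefore did not move alike.

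RBFOX2, which binds GCAUG motifs and takes part in the splicing of EMT genes, was 1009 and 1446 in WT and 733 and 889 in KO1 (−0.58, adjusted p = 0.00717), with −0.27 in KO2 (adjusted p = 0.21). QKI and CELF1 had log2 changes of at most 0.11 in size in both clones and passed in neither. TIA1, a U-rich binder of stress granules, was 1013 and 995 in WT, 561 and 387 in KO1 and 958 and 1056 in KO2. It fell in KO1 (−1.10, adjusted p = 6.1e-04), with a log2 change of 0.00 in KO2 and a difference between the clones of −1.11 (adjusted p = 0.00209). Of the splice site recognition factors U2AF2, SF3B1 and SF1, none passed in either clone, with log2 changes from −0.39 to 0.25.

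In the PTB family the 3 paralogs differed. PTBP1, the member that the MORF4L1 adaptor is known to recruit, was 1794 and 3301 in WT, 2143 and 1761 in KO1 and 2887 and 1633 in KO2, and the groups overlapped (−0.32 and −0.16, adjusted p = 0.363 and 0.711). Its duplicates were far apart in WT and in KO2, and the sign changed with them, since without WT replicate 2 it was 0.12 in KO1 and 0.28 in KO2, without KO2 replicate 2 it was 0.25 in KO2, and without WT replicate 1 it was −0.76 in KO1 and passed (adjusted p = 0.0382). Without WT replicate 1 it also passed with TGF-β (−0.95, adjusted p = 0.0236), where it was −0.51 (adjusted p = 0.239) in the full fit. With the same total PTBP1 passed as lower in KO1 (−0.73, adjusted p = 0.0431) and as higher in rescue than in KO (0.49, adjusted p = 0.0466).

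PTBP3 was the member that rose most in both KO clones. It was 5000 and 4035 in WT, 6906 and 6737 under TGF-β treatment, 7566 and 8695 in KO1 and 9757 and 10130 in KO2, with no overlap between the 4 groups. The rise was 1.52-fold with TGF-β (0.60, adjusted p = 6.3e-04), 1.81-fold in KO1 (0.85, adjusted p = 7.2e-06) and 2.21-fold in KO2 (1.15, adjusted p = 5.8e-07). PTBP3 also passed as higher in WT eGFP cells than in WT (0.54), where vector and serum differ together. Per kilobase of exon in WT, PTBP3 had 548.5 normalized counts, PTBP1 338.7 and PTBP2, the neuronal paralog, 18.1. PTBP2 was 436 and 293 in WT and 276 to 481 in the KO libraries, and passed in neither clone.

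**Figure D4:**
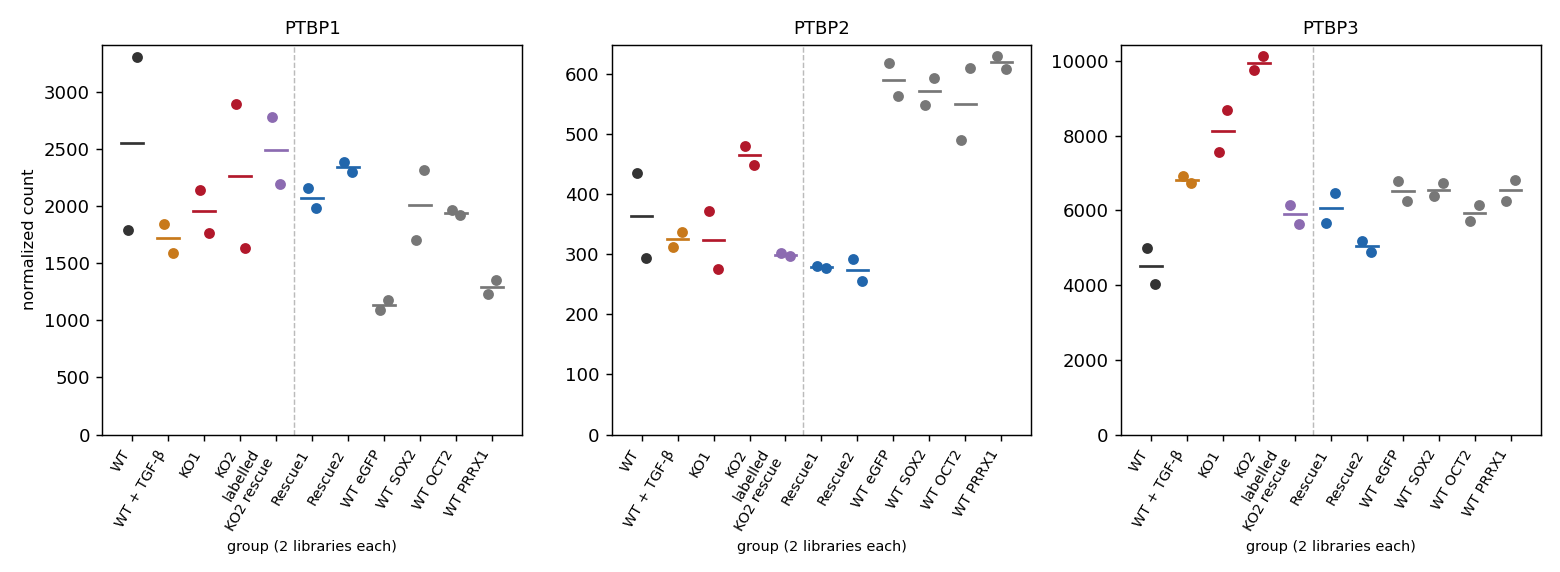
Normalized counts of PTBP1, PTBP2 and PTBP3 in each library of the 11 groups, with points for libraries, bars for group means, and 2% serum to the left of the dashed line. PTBP3 is 4035 to 5000 in WT and 7566 to 10130 in the KO clones, while PTBP1 in WT spans 1794 to 3301.

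The adaptors that read H3K36me3 had modest changes in the KO clones. MORF4L1 was 7119 and 7279 in WT and 7343 to 10166 in the KO libraries (0.26 and 0.18, neither past the test). PSIP1 was 802 and 943 in WT and 410 to 881 in KO (−0.50 and −0.53, adjusted p = 0.273 and 0.288). ZMYND11, a reader of the mark on histone H3.3 that also binds splicing factors, was 1771 and 1698 in WT, 1130 and 1062 in KO1 and 1512 and 1466 in KO2. It fell in both (−0.66, adjusted p = 6.8e-07, and −0.22, adjusted p = 0.0143) and was 1948 to 2009 in the rescue clones. In rescue against KO all 3 adaptors passed, where 22.5% of all genes were higher and 23.2% lower. ZMYND11 (0.63, adjusted p = 1.9e-08) and PSIP1 (0.79, adjusted p = 0.0153) were higher, and MORF4L1 was lower (−0.43, adjusted p = 3.0e-04). Against WT eGFP cells MORF4L1 was lower too (−0.53, adjusted p = 6.1e-04), and the other adaptors did not pass.

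KO1 and KO2 are clones of the same design, and the direct comparison asked how far they differ. Of the 42 members 12 were lower in KO1 than in KO2, where 9.56% of all genes were lower, and none was higher, where 6.44% were. These 12 were 8 hnRNPs with ESRP2, MBNL2, TIA1 and SRSF6. HNRNPA1 differed by −0.83 (adjusted p = 8.9e-07), and SRSF6, at 479 and 353 against 888 and 714, by −0.95 (adjusted p = 0.0113), although SRSF6 passed against WT in neither clone. The SRSF6 difference did not pass without KO1 replicate 2 (adjusted p = 0.105) or KO2 replicate 1 (adjusted p = 0.095). With the same total 27 members were lower in KO1, at an all-gene median of −0.207.

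With TGF-β, 17 members were lower and 1 higher than in untreated WT, where 9.22% of all genes were lower and 8.5% higher, and none both passed and changed by more than 2-fold, where 7.84% of all genes did. The member that rose was PTBP3. Among the 17 were 10 hnRNPs (median of the 14, −0.49) and 5 SR proteins, with the largest falls in HNRNPC, HNRNPA1 (−0.66, adjusted p = 6.6e-06) and HNRNPD, which was 2890 and 3420 (−0.65, adjusted p = 2.5e-05). These values stand beside those of the KO clones and share the WT libraries with them. When only the 4 libraries of WT and TGF-β were fitted with limma, none of the 42 members passed (18 at an unadjusted p under 0.05), and none of all the genes did.

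Fitted directly, the mean of both KO clones had 14 members lower and 6 higher than TGF-β-treated WT cells, where 18.2% of all genes were lower and 18.1% higher. ESRP2 led the lower members, followed by TIA1 (−0.92, adjusted p = 9.2e-04), which was 1421 and 1183 with TGF-β, and HNRNPA3 (−0.63, adjusted p = 1.2e-06). MBNL2, at 939 and 1082 with TGF-β, was higher in KO (0.65, adjusted p = 1.6e-05), as were MBNL1 (0.61, adjusted p = 1.1e-06), HNRNPC (0.40, adjusted p = 2.2e-05) and PTBP3 (0.40, adjusted p = 0.00216). HNRNPU (0.26) and SRSF5 (0.31) were the others. For HNRNPC and TIA1 the clones differed, as given above, and TIA1 fell against WT in KO1 only. The KO1 libraries of HNRNPC overlapped those with TGF-β, and only its KO2 libraries lay above them.

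**Figure D5:**
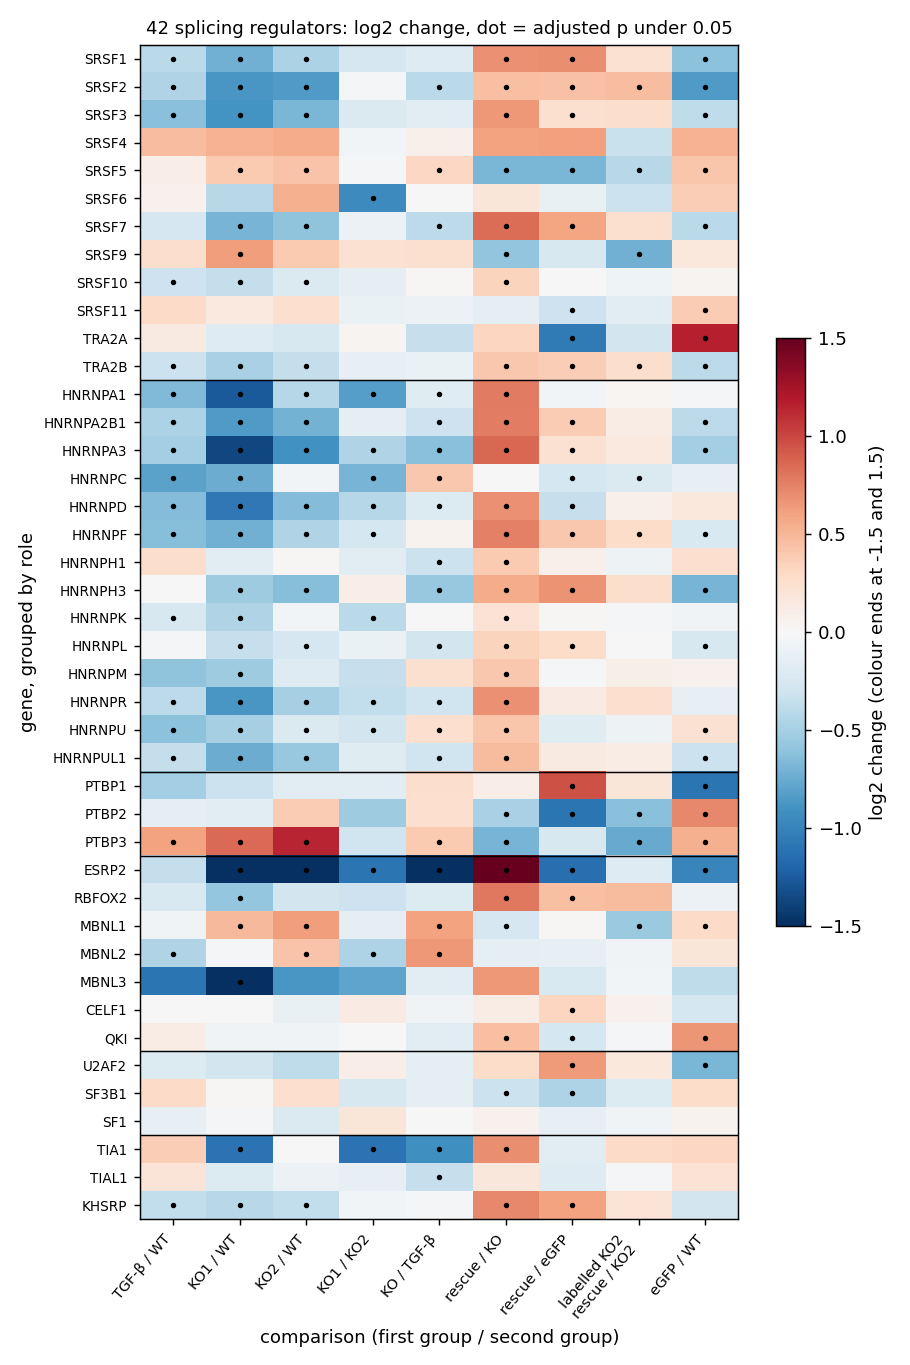
Log2 change (colour, ends at −1.5 and 1.5) of the 42 tested members, grouped by role, in 9 comparisons, each named as the group over the group it was compared with. A dot marks an adjusted p under 0.05. Most of the hnRNP block is blue in KO1 and KO2 and red in rescue over KO, and ESRP2 and MBNL3 go past the end of the scale in KO1.

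The rescue clones were higher than KO for 24 members and lower for 6, where 22.5% of all genes were higher and 23.2% lower. Of the 14 hnRNPs 13 were higher (median 0.51), and HNRNPC, at 12757 to 13327, was the exception (0.01, adjusted p = 0.894). Its rescue libraries lay above those of KO1 and under those of KO2, so that the comparison with the mean of both clones describes neither. HNRNPA1 was 22683 to 24670 in the 4 rescue libraries, above all 4 KO libraries (0.78, adjusted p = 3.8e-09), and HNRNPA3 was 8852 to 9931 (0.86, adjusted p = 3.1e-09). SRSF7, at 1922 to 2098 against 915 to 1320 in KO, was the SR protein that rose most (0.84, adjusted p = 1.4e-06). PTBP3 (−0.70, adjusted p = 1.2e-06), SRSF5 (−0.68, adjusted p = 1.8e-06) and SRSF9 (−0.59, adjusted p = 0.00342) were the members that fell most, the last not passing with the same total (−0.19, adjusted p = 0.281). Against KO2 alone 21 were higher and 8 lower, without an all-gene share from the same fit to set beside them. When only the rescue and KO2 libraries were fitted, 30 members passed, and 4663 of all 14585 genes did. Against the mean of both clones and with the same total, 37 were higher and 2 lower, at an all-gene median of 0.373.

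Within 10% serum, the rescue clones had 15 members higher and 9 lower than WT eGFP cells, where 14.9% of all genes were higher and 14.6% lower. Of the 14 hnRNPs 5 were higher and 2 lower. With the same total the split was 17 higher and 6 lower. PTBP1 was 1982 to 2386 in the rescue clones against 1092 and 1177 in eGFP cells (0.96, adjusted p = 0.00552, but 0.059 without eGFP replicate 1), and SRSF1 was 4417 to 4965 against 3097 and 2800 (0.70, adjusted p = 4.3e-06). HNRNPH3 was higher as well (0.67, adjusted p = 2.5e-05). PTBP2, at 255 to 292 against 619 and 563, and TRA2A, a partner of SR proteins in exon inclusion, at 258 to 413 against 648 and 669, were lower (−1.10 and −1.06, adjusted p = 8.9e-05 and 2.5e-04). Without eGFP replicate 1, 15 members passed in place of 24.

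PTBP2 and TRA2A also differed between WT in 2% serum and eGFP cells in 10% serum, where 14 members were lower and 8 higher and 13.5% and 13.1% of all genes were. Of the 14 hnRNPs 6 were lower in eGFP cells and 1 higher (median −0.13), and PTBP3 was higher (0.54). TRA2A was 342 and 252 in WT (1.17, adjusted p = 4.4e-04), PTBP2 rose (0.72, adjusted p = 0.008, but 0.114 without WT replicate 2 and 0.0659 without eGFP replicate 1), and QKI rose from 2525 and 2980 to 4568 and 4107 (0.66, adjusted p = 6.7e-05). PTBP1 fell (−1.10, adjusted p = 0.00631, but −0.66 and 0.0967 without WT replicate 2), and SRSF2 fell to 2782 and 2966 (−0.85, adjusted p = 2.0e-07). The count of 22 was 14 without WT replicate 2 and 14 without eGFP replicate 1. It was 2 when only these 4 libraries were fitted, where 970 of all genes passed.

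The labelled KO2 rescue differed from KO2 in 9 members, with 3 higher (SRSF2, HNRNPF and TRA2B) and 6 lower, where 4.96% and 5.38% of all genes were. With the same total 8 were higher and 4 lower. SRSF2, at 3945 and 4010, rose most (0.46, adjusted p = 1.8e-04), and HNRNPF (0.28, adjusted p = 0.0323) and TRA2B (0.27, adjusted p = 0.0338) were just past the threshold. PTBP3 was lower, at 6152 and 5637 (−0.76, adjusted p = 1.5e-04), as were SRSF9 (−0.72, adjusted p = 0.0334) and PTBP2 (−0.63, adjusted p = 0.0384). Leaving out any 1 of the 4 libraries left 3 or 4 members past the threshold, and HNRNPF, TRA2B and PTBP2 did not pass in any of these 4 fits (adjusted p = 0.107 to 0.19). SRSF9 passed in 1 of the 4, without replicate 1 of the labelled KO2 rescue, and not with the same total (adjusted p = 0.0542).

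No member passed between the SOX2, OCT2 or PRRX1 line and eGFP cells with limma, and at an unadjusted p under 0.05 there were 4, 2 and 1 of the 42. Over all 14585 genes 3, 6 and 7 passed (0.0206%, 0.0411% and 0.048%), so that little of any kind was called in these comparisons. The member with the largest difference was PTBP1 in the SOX2 line, at 1700 and 2316 (0.81, adjusted p = 0.549). PTBP1 was 1966 and 1918 with OCT2 (0.78, adjusted p = 0.523) and 1225 and 1352 with PRRX1 (0.18, adjusted p = 1).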

How the data were processed

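Per the labels, RNA of RPTEC was made into stranded mRNA libraries, and the authors deposited gene-level log2 values, made with Salmon from Ensembl release 94 transcripts of GRCh38. That these log2 values are variance-stabilized was read from them: all 22 libraries share 11.3188 as their lowest value. Inverting that transformation gave the normalized counts used here. The submitters' processing notes name Salmon 1.9.0, DESeq2 1.26.0 and hg38. Totals were 11674491 to 16758645 normalized counts per library. Gene symbols and positions came from GENCODE release 44, which holds 33878 of the 36859 genes, and promoters from RefSeq (GRCh38.p14). Exonic length was the union of all exons.

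The test was limma 3.58.1 in R 4.3.3, with a variance trend, on log2(normalized count + 1), with 1 mean per group, all 22 libraries in 1 fit and no covariate. Benjamini-Hochberg adjustment was over the 14585 genes that reached 10 normalized counts in 2 or more libraries, and a gene passed at an adjusted p under 0.05. Log2 changes are on the log2(normalized count + 1) scale. Members and lists were chosen with earlier results of these data known. Named were ESRP1, ESRP2 and PTBP1, every member past a 2-fold change, the 5 largest rises and falls per KO clone and 3 in other comparisons, paralogs, adaptors and the genes around ESRP. The fit was tested on simulated data. Alternatives were other pseudocounts, filters and scalings, a replicate block, the deposited values, fewer libraries and added pseudogenes.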

Additional observations from a re-analysis of the deposited data

Results flagged for a closer look

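Between the KO clones, 12 members changed by different amounts against the same WT libraries in a test of the difference itself (limma, adjusted p under 0.05). On the log2 scale, KO1 minus KO2 was −1.11 for TIA1, −1.09 for ESRP2, −0.95 for SRSF6, −0.83 for HNRNPA1, −0.70 for HNRNPC, −0.47 for MBNL2, −0.45 for HNRNPA3, −0.42 for HNRNPD, −0.41 for HNRNPK, −0.37 for HNRNPR, −0.28 for HNRNPU and −0.27 for HNRNPF. All 12 were lower in KO1, and 9.56% of all genes were. KO1 also differed in other values that move with it, since its fibroblast marker DCN was 234810 and 221610 normalized counts against 98373 and 94978 in KO2, COL1A1 was 1042 and 815 against 3751 and 3520, and its epithelial list summed to 10106 to 12057 against 19626 to 20603. Their part in the difference was not tested. When only the 4 libraries of both clones were fitted, none of the members passed (12 at an unadjusted p under 0.05, limma). Of all 14585 genes, 1 passed in that fit, so that it called hardly anything of any kind.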

How the results depend on the processing

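Fitting only the libraries compared lowered most counts of members that passed. They were 0 for TGF-β, 14 for KO1, 13 for KO2 and 0 for KO1 against KO2. For KO against TGF-β 12 passed, for eGFP against WT 2, and for the labelled KO2 rescue 7. Rescue against KO stayed at 30 and rescue against eGFP at 24. Of all 14585 genes, the same fits passed 0 for TGF-β, 2331 for KO1, 2355 for KO2 and 1 for KO1 against KO2. They passed 3829 for KO against TGF-β, 970 for eGFP against WT and 907 for the labelled KO2 rescue. Rescue against KO had 5672 and rescue against eGFP 3665. These fits have fewer samples behind each estimate of the spread. WT and KO1 also had the widest duplicates (median absolute log2 difference 0.181 and 0.162), while the main fit shares 1 estimate over 11 groups. The part of each in the lower counts was not tested. The same total for every library gave 27 for KO1 against KO2. Leaving out 1 library at a time gave 13 to 24 for TGF-β, 24 to 29 for KO1, 19 to 26 for KO2, 8 to 14 for KO1 against KO2, 15 to 22 for KO against TGF-β, 29 to 32 for rescue against KO, 15 to 23 for rescue against eGFP, 3 to 4 for the labelled KO2 rescue and 14 to 25 for eGFP against WT. All other alternatives stayed within 1.5 times the main count. The replicate numbers did not pair the libraries, since over 55 pairs of groups the deviations of same-numbered libraries correlated at −0.082 to 0.047. With the replicate block 18 members passed for TGF-β, 28 for KO1, 22 for KO2 and 25 for rescue against eGFP. Signs turned when 1 library was left out for PTBP1, which ranged from −0.76 to 0.12 in KO1, −0.60 to 0.28 in KO2, −0.57 to 0.25 for KO1 against KO2, −0.11 to 0.30 for rescue against KO and −0.23 to 0.60 for the labelled KO2 rescue, and for ESRP2 against eGFP, from −0.51 to 0.12 with SOX2, −0.49 to 0.14 with OCT2 and −0.47 to 0.16 with PRRX1. With the same total SRSF5 in KO1 was −0.016. The cause was not tested. Leaving out 1 library moved ESRP2 between −5.13 and −3.90 in KO1 and between −3.70 and −3.14 in KO2. On the deposited log2 values, whose floor of 11.3188 compresses low genes, ESRP2 was −0.56 in KO1 and −0.49 in KO2, and still passed in both (limma). Depth limits ESRP1, which was under 3 normalized counts in all libraries.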

Other observations

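Genes of the core spliceosome, which carries out splicing in every cell, were counted beside the regulators. Of 34 tested, 12 were lower and none higher in KO1 (median log2 change −0.41), and 7 were lower and none higher in KO2 (median −0.22), where 20.8% and 13.7% of all genes were lower. U2AF1, which recognises the AG of the 3′ splice site, fell over 2-fold in both clones (−1.61, adjusted p = 0.0126 in KO1, and −1.31, adjusted p = 0.0486 in KO2, limma) and was higher in rescue than in KO (1.56, adjusted p = 0.00128). The others over 2-fold lower in KO1, named after their values were seen, were SNRPA of the U1 particle (−2.08), the helicase AQR (−1.17) and the Sm proteins SNRPF (−1.10) and SNRPD1 (−1.07).

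Among 36 tested splicing genes that are no members, 13 were lower and 3 higher in KO1, where 20.8% of all genes were lower and 19% higher. In KO2, 7 were lower and 5 higher, where the shares were 13.7% and 15.3%, so that the higher count was near its share. None passed the test at over 2-fold in both clones. Over 2-fold in KO1, and again named after their values were seen, RBM47, SRSF12 (−2.95 ± 0.77 SE), RBMX (−1.12) and NONO (−1.08) fell. ELAVL2 (3.27 ± 1.2 SE, adjusted p = 0.043, limma) and KHDRBS3 (2.10 ± 0.55 SE, adjusted p = 0.00709) rose there. In KO2 NOVA1 (3.64 ± 0.98 SE, adjusted p = 0.0105, limma) and CELF2 (1.09 ± 0.18 SE, adjusted p = 2.2e-04) rose. CELF2 fell in KO1 (−0.65, adjusted p = 0.00798, limma). The sizes for ELAVL2 and NOVA1 are loosely set, given their SE. Whether very low counts made them large was not tested. Of the 5 SR protein kinases tested, CLK1 alone rose in KO1 (0.44, adjusted p = 0.0326, limma), near the 19% of all genes that were higher. It did not pass in KO2 (0.39, adjusted p = 0.0734, limma). CLK1 was also higher in WT eGFP cells than in WT (0.69, adjusted p = 0.00358, limma).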
